A study of Homo sapiens with 4 samples.

Results

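The 10 genes described here control or mark the epithelial-mesenchymal transition (EMT). They are the transcription factors SNAI1, SNAI2, ZEB1, ZEB2, TWIST1 and TWIST2, the mesenchymal products VIM and FN1, and the epithelial factors GRHL2 and ESRP1. They were chosen by name, and all 10 were found among the 29655 gene names of the count tables. Their levels were compared in UMSCC74B, an established cell line labelled as head and neck squamous cell carcinoma (HNSCC). A pair of control libraries came from cells of genotype WT given control shRNA, and the other 2 libraries, called KD-labelled below, came from cells of genotype PRMT5 KD given PRMT5 shRNA. All cells were collected 72 h after delivery, which the labels call plasmid transfection and the methods of the paper call lentiviral transduction. Both groups share the line, the medium and the delivery of an shRNA, so the comparison covers 1 line, and the labels do not say how many shRNA sequences were used. Nothing in the labels says that the 2 libraries of a group came from separate cultures, so each p-value measures the spread between these libraries, which may be technical.

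In EMT, cells give up the junctions and polarity of an epithelium and take on the matrix, filaments and motility of mesenchymal cells. The SNAI, ZEB and TWIST proteins drive it, and the SNAI and ZEB zinc finger proteins bind E-box motifs in the promoters of epithelial genes such as CDH1 (E-cadherin) and repress them. GRHL2 and the splicing regulator ESRP1 hold the epithelial state, and the miR-200 microRNAs repress ZEB1 and ZEB2. In squamous carcinomas EMT is known for its link to invasion and spread. PRMT5 is an arginine methyltransferase, and the LIM protein AJUBA is known to bring it to SNAI1.

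The libraries held 52185289 to 65964558 estimated counts each, of which 71.5% to 81.4% lay on protein-coding genes. CPM below are counts scaled to depth with edgeR's TMM factors, and RPKM divides CPM by the length in kilobases of the canonical transcript, so that genes can be compared with each other. Fold changes come from edgeR's quasi-likelihood test on 11897 protein-coding genes. A gene is called when its Benjamini-Hochberg adjusted p (FDR) is under 0.05 and its log2 fold change is at least 0.5 in either direction. Many genes differed between these groups. Of all genes tested, 45.5% were called, with 21.2% higher and 24.3% lower in the KD-labelled libraries, and for 80.5% the libraries of the groups did not overlap. The PRMT5 transcript itself went against the label. Control held 94.3 and 84.2 CPM and the KD-labelled libraries 132 and 149.5 CPM, which edgeR put at a log2 difference of 0.66 (SE 0.12, FDR = 0.00547). Without control replicate 2 it was 0.58 and no longer called (FDR = 0.0666). Directions below are therefore by label only. For protein, the paper reports silencing by the PRMT5 shRNA on an immunoblot, which these counts do not measure.

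The defining markers of squamous epithelium were mostly missing in all 4 libraries. KRT5 and KRT14, the keratins of basal squamous cells, had 0 counts in both control libraries and at most 0.46 CPM in the others, and KRT6A had 1 count in all. E-cadherin (CDH1) had 2 to 9 counts per library. The 12 squamous markers together made 54.7 to 61.6 CPM in control and 38.4 to 50 CPM in the KD-labelled libraries. DSG3, a desmosomal cadherin, gave the largest share of this and was called lower at -0.85, as was TP63 at -1.35, while PKP1, a desmosomal plaque protein, was called higher at 0.79 (FDR of 0.00902, 0.0111 and 0.0055, edgeR). Among those too low to test, KRT17 went from 0.126 and 0.12 CPM to 1.11 and 1.48 CPM and SFN from 0.0758 and 0.0999 CPM to 0.588 and 1.80 CPM, against the direction of the sum. The 9 fibroblast markers summed to between 874 and 1037 CPM in control and between 153 and 162 CPM in KD-labelled libraries. All 8 of those tested were called lower, against 24.3% of all genes tested. Their median was -2.32 on the log2 scale, against -0.01 over all genes tested. The 6 endothelial markers summed to 11.1 to 14.9 CPM in control and 1.42 to 2.18 CPM in the KD-labelled libraries. The 6 leukocyte markers summed to 129 to 153 CPM and 154 to 172 CPM, nearly all of it CD68 and CD14. These moved in opposite directions, CD14 from 34.6 and 40 CPM to 1.07 and 1.86 CPM (-4.67 on the log2 scale, FDR = 0.00024, edgeR) and CD68 higher by 0.63, a call lost without control replicate 1 (FDR = 0.0731). PTPRC, found on all leukocytes, had at most 0.0999 CPM and CD3E had 0 counts. PKP1 was not called without control replicate 1 or 2, at 0.77 and 0.82, nor DSG3 without control replicate 1, at -0.72. Fits without a control library called fewer of all genes as well. In bulk RNA, fewer cells of a type and less RNA per cell cannot be told apart. The part of a change in cell makeup in the results below was not tested.

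Ordered by length-scaled level, VIM and FN1 stood far above the other members, and GRHL2 and ESRP1 were close to 0. VIM ranked 16 and FN1 ranked 74 of the 11897 genes tested by mean RPKM over the 4 libraries. SNAI2 ranked 1294 and ZEB2 ranked 3382, in the upper part of the range, and ZEB1 ranked 5508, near its middle. TWIST1 ranked 7643, SNAI1 ranked 10021 and TWIST2 ranked 11304. In control, SNAI2 had 50.2 and 53.8 RPKM, above ZEB2 with 22.4 and 18.7 RPKM and ZEB1 with 14.0 and 15.0 RPKM. In the KD-labelled libraries, ZEB2 at 26.3 and 15.7 RPKM stayed above ZEB1 at 9.59 and 8.75 RPKM, and neither gene's libraries reached those of SNAI2. Next in control came TWIST1 at 8.51 and 8.46 RPKM, SNAI1 at 1.96 and 2.13 RPKM and TWIST2 at 1.04 and 0.864 RPKM. No neighbours in this order shared values within control, nor did any within the KD-labelled libraries.

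**Figure D1:**
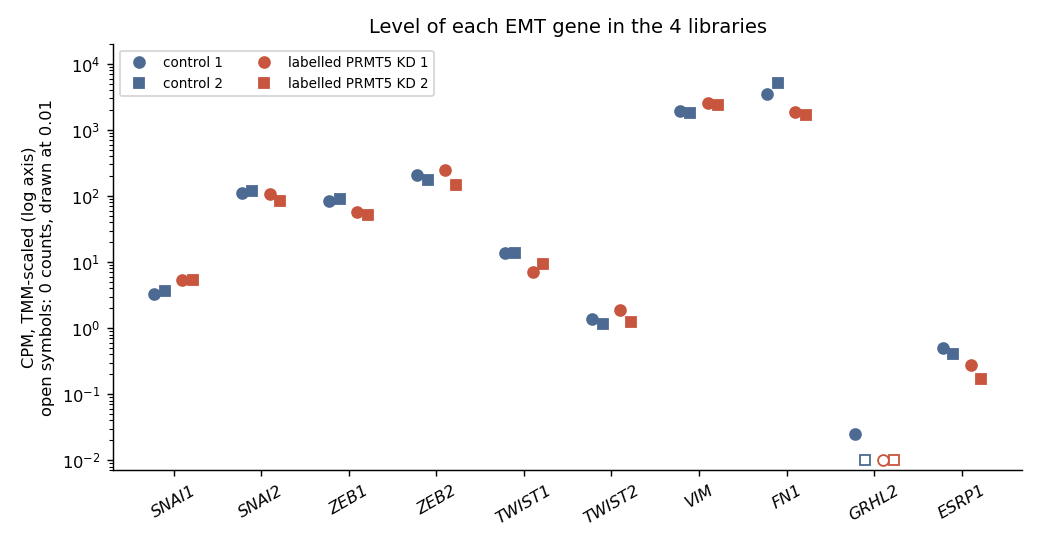
CPM of the 10 EMT genes on a log axis, 1 symbol per library, with control in blue and the libraries labelled PRMT5 KD in red; open symbols stand for 0 counts. FN1, ZEB1 and TWIST1 lie lower and VIM and SNAI1 higher in both libraries labelled PRMT5 KD, the libraries of ZEB2 and TWIST2 overlap between the groups, and GRHL2 has 1 count in all.

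Among the 8 members tested, 4 were called, 3 lower (FN1, TWIST1 and ZEB1) and 1 higher (SNAI1). That share lies near the 45.5% of all genes called. SNAI2, ZEB2, TWIST2 and VIM were not called. The median log2 change of the 8 tested members was -0.11, against -0.01 over all genes tested. Without control replicate 1 or 2, ZEB1 and FN1 kept their calls and SNAI1 and TWIST1 did not. Both of these fits also called fewer of all genes. SNAI1 was at 0.56 and 0.68 in them and TWIST1 at -0.75 and -0.76. The libraries of the groups did not overlap for 6 of the 8, against 80.5% of all genes. GRHL2 and ESRP1 fell under the filter on low values, which kept genes reaching 0.5 RPKM in each library of either group. All 8 others passed it in both groups.

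**Figure D2:**
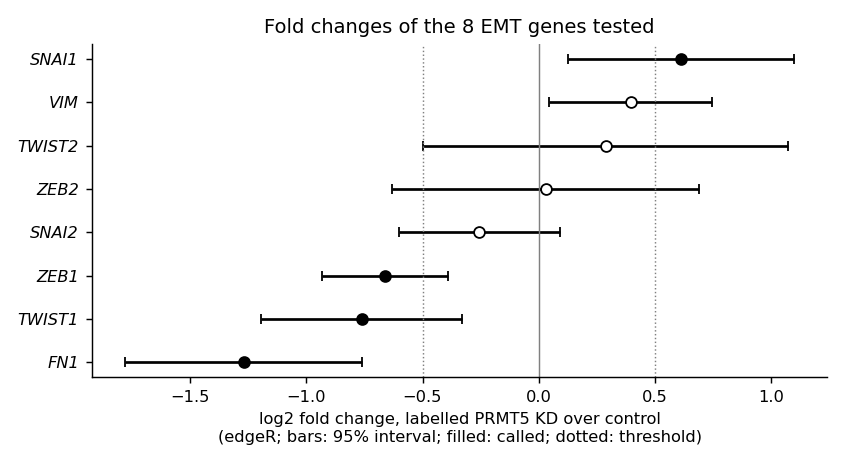
Log2 fold change of the 8 EMT genes tested, labelled PRMT5 KD over control, with 95% intervals from edgeR as bars, called genes filled and the threshold of 0.5 dotted. FN1, TWIST1 and ZEB1 lie below 0 and SNAI1 above it with intervals that leave out 0. VIM's interval also lies above 0, without a call, and those of SNAI2, ZEB2 and TWIST2 take in 0.

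The Snail genes were examined first. SNAI1, which encodes the zinc finger repressor Snail, lies on chromosome 20 of GRCh38 from 49982980 to 49988886 on the plus strand. Control libraries held 132 and 182 counts (3.33 and 3.64 CPM), and KD-labelled libraries 251 and 258 counts (5.27 and 5.39 CPM). Both of the latter were above both control libraries, with means of 3.49 ± 0.214 CPM (SD, n = 2) and 5.33 ± 0.0861 CPM (SD, n = 2). This is 0.61 on the log2 scale (SE 0.20, FDR = 0.041, edgeR), a call near both thresholds. It was not called with the replicate number as a block (FDR = 0.0763), after a correction for length and GC content (0.45, FDR = 0.10), or without control replicate 1 (FDR = 0.2075), control replicate 2 (FDR = 0.165) or PRMT5 KD replicate 2 (FDR = 0.0587).

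SNAI2, which encodes the related repressor Slug, lies on chromosome 8 from 48917598 to 48921740 on the minus strand. Its level was 109 and 117 CPM in control, and 106 and 83.6 CPM in KD-labelled libraries. The first of these lay just under the control range, and the second well under it. SNAI2 differed by -0.25 on the log2 scale, with a 95% interval from -0.60 to 0.09 (FDR = 0.175, edgeR). Within each library SNAI2 exceeded SNAI1 in RPKM, by 25.7 and 25.2 times in control and by 15.8 and 12.1 times in KD-labelled libraries. SNAI3, the third gene of the family, had at most 6 counts in any library.

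The ZEB genes encode a pair of large zinc finger and homeodomain proteins that repress epithelial genes. ZEB1 lies on chromosome 10 from 31318495 to 31529814 on the plus strand. Control libraries held 83.2 and 88.9 CPM, and KD-labelled libraries 56.9 and 51.9 CPM, with means of 86.1 ± 4.01 and 54.4 ± 3.53 CPM (SD, n = 2 each). The control libraries lay close together and well above the others. ZEB1 changed by -0.66 on the log2 scale (SE 0.11, FDR = 0.00374, edgeR), and it was called in each fit that left out 1 library. With scaling by total counts alone it was -0.48, just short of the fold change threshold, at an FDR of 0.00948. ZEB2 lies on chromosome 2 from 144364364 to 144521057 on the minus strand. Its control levels were 208 and 173 CPM, and its KD-labelled levels 244 and 145 CPM, so that the latter pair lay on either side of the control range. Its log2 difference was 0.03 with an interval from -0.63 to 0.69 (FDR = 0.936, edgeR). It was -0.36 without PRMT5 KD replicate 1 and 0.36 without PRMT5 KD replicate 2, neither of them called. PRMT5 KD replicate 1 thus lay above, and PRMT5 KD replicate 2 below, both controls. In each library ZEB2 exceeded ZEB1 in RPKM, by 1.60 and 1.25 times in control and by 2.75 and 1.79 times in KD-labelled libraries.

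Genes next to the ZEB pair were also read. ZEB1-AS1, which starts beside ZEB1 on the opposite strand, had 154 and 183 counts in control, against 119 and 97 counts. In a fit over all gene names it was called lower, at -0.71 (FDR = 0.0436, edgeR). ZEB2-AS1 had at most 2 counts in a library. The kit marks the strand, but the strand setting of the counting is not given in the sources used here, so reads of a gene and of its antisense partner may not be fully parted. For the microRNAs that target ZEB1 and ZEB2, the genes MIR200A, MIR200B, MIR429, MIR200C, MIR141 and MIR205 were listed at 0 in all 4 libraries, as were MIR205HG and MIR34A. Apart from MIR205HG, a host gene, these rows cover short precursors, and libraries of this kind do not measure mature microRNAs. MIR200CHG and MIR34AHG were not matched to a row.

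The mature sequences of the miR-200 family (RefSeq, GRCh38.p14) are shown because they fall into 2 seed groups, both with many matches in ZEB1 and ZEB2. Capitals mark bases 2 to 8, the seed.
hsa-miR-200b-3p: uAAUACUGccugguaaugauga
hsa-miR-200c-3p: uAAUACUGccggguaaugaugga
hsa-miR-429: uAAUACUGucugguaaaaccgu
hsa-miR-200a-3p: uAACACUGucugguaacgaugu
hsa-miR-141-3p: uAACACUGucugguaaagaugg

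The first 3 share the seed AAUACUG, whose match in an mRNA reads CAGTATT. The other 2 share AACACUG, whose match reads CAGTGTT. Exact matches were counted in the 3′ UTR of the canonical transcript. ZEB1, with a UTR of 2540 bases, held 6 of the first and 3 of the second. ZEB2, with 5370 bases, held 5 and 4. Of 11879 UTRs of genes tested, 19.7% held at least 1 match of the first kind and 21.5% at least 1 of the second, and longer UTRs have more room for them. No match of either kind was found for SNAI1, TWIST1, TWIST2 or VIM, while FN1 held 2 of the first kind and SNAI2 held 1. Of the epithelial members, ESRP1 held 1 of each kind and GRHL2 held 1 of the second. A match is a description of these letters and not a measured site. The first match of each kind in each ZEB gene is printed with its flanks, with the match in capitals.
ZEB1 at chr10:31527621-31527645, plus strand: gttttatcttatCAGTATTatcact
ZEB1 at chr10:31528034-31528058, plus strand: aatcatcagaatCAGTGTTtgtgat
ZEB2 at chr2:144389047-144389071, minus strand: actaccatacatCAGTATTtttatt
ZEB2 at chr2:144389231-144389255, minus strand: aaaaattttgtaCAGTGTTaaggcc

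The TWIST genes encode basic helix-loop-helix factors that pair with E proteins. TWIST1 lies on chromosome 7 from 19020991 to 19117636 on the minus strand. Control libraries held 549 and 690 counts (13.9 and 13.8 CPM), and KD-labelled libraries 335 and 443 counts (7.04 and 9.26 CPM). The control libraries were nearly equal, at 13.8 ± 0.0549 CPM, and both others lay below them, at 8.15 ± 1.57 CPM (SD, n = 2 each). On the log2 scale TWIST1 changed by -0.76 (SE 0.18, FDR = 0.0126, edgeR). Without control replicate 1 or 2 its size was -0.75 and -0.76, but the FDR rose to 0.0835 and 0.0913. TWIST2, on chromosome 2 from 238848032 to 238910534, was near the lower end of what was tested, with 55, 58, 88 and 60 counts in the order control 1, control 2, PRMT5 KD 1 and PRMT5 KD 2. The groups overlapped, and the log2 fold change of 0.29 had an interval from -0.50 to 1.07 (FDR = 0.482, edgeR).

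Of the mesenchymal products, FN1 was called and VIM was not. VIM encodes vimentin, the intermediate filament protein of mesenchymal cells, and lies on chromosome 10 from 17228241 to 17237593. Control libraries held 1922 and 1790.5 CPM, and KD-labelled libraries 2513 and 2371 CPM, so both of the latter were above control. VIM differed by 0.40 on the log2 scale, with a 95% interval from 0.04 to 0.75 (FDR = 0.0579, edgeR), short of both thresholds. With scaling by total counts alone, which moves the median of all genes from -0.01 to 0.17, VIM was at 0.57 and was called (FDR = 0.0141). FN1 encodes fibronectin, a glycoprotein of the extracellular matrix, and lies on chromosome 2 from 215360440 to 215436073. Control libraries held 3557 and 5092 CPM, and KD-labelled libraries 1892.5 and 1694 CPM. The control libraries differed from each other more than the others did, yet both lay well above them. Means were 4325 ± 1085 and 1793 ± 140.1 CPM (SD, n = 2 each). FN1 changed by -1.27 on the log2 scale (SE 0.21, FDR = 0.00348, edgeR), the largest among the members tested. It was called under each alternative tried. Its change was smallest in size with the length and GC correction, at -0.88, or -0.86 with the replicate number as a block as well. Among the fits with 1 library left out, it was smallest without control replicate 2, at -0.98. VIM exceeded FN1 in RPKM by 2.10 and 1.37 times in control and by 5.17 and 5.45 times in KD-labelled libraries. VIM-AS1, an antisense gene at VIM, had 94 to 152 counts per library and was not called (FDR = 0.379 over all gene names).

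The epithelial factors were near or at the limit of detection in both groups. GRHL2, a grainyhead transcription factor that activates CDH1 and claudin genes, lies on chromosome 8 from 101492439 to 101669726. It had 1 count in control replicate 1 and 0 in the other 3 libraries. A count of 0 allows up to 3 counts, which is 0.0599 to 0.0630 CPM in those 3 libraries, for counting error only. No direction can be read from these values. ESRP1, which promotes epithelial exon choice, lies on chromosome 8 from 94641074 to 94707466 and had 20 counts in each control library and 13 and 8 in the others. That is 0.505 and 0.4 CPM against 0.273 and 0.167 CPM, with no overlap. Fitted without a filter it differed by -0.97 on the log2 scale (SE 0.55, FDR = 0.191, edgeR). Their paralogs were low too. ESRP2 had 42 to 60 counts per library, GRHL1 had 8 to 19 and GRHL3 had at most 4.

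**Figure D3:**
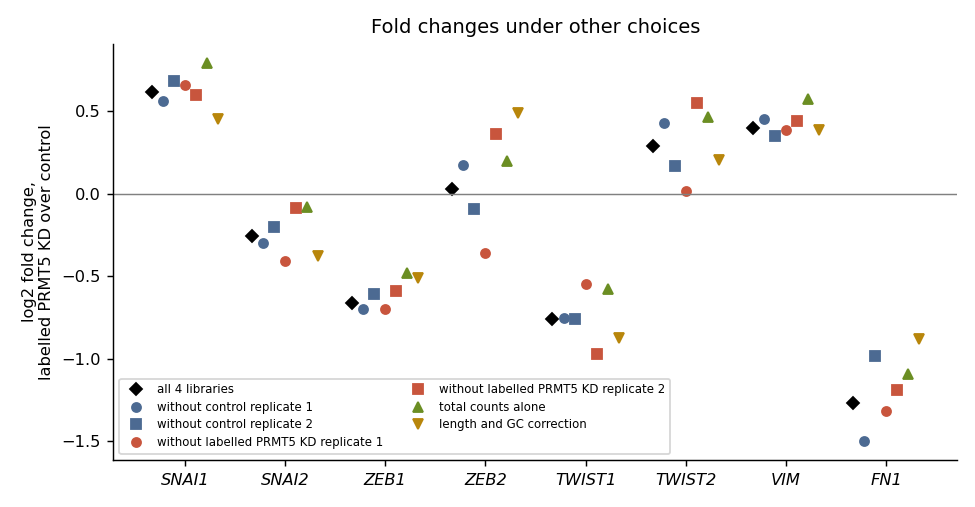
Log2 fold change of the 8 EMT genes tested with all 4 libraries (black diamonds), with each library left out in turn (blue and red), with scaling by total counts (green) and after the length and GC correction (gold). FN1, ZEB1 and TWIST1 stay below 0 and SNAI1 and VIM above 0 throughout, and ZEB2 lies on either side of 0.

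Other transcription factors known in EMT, 18 in all, were read next, of which 14 were tested. Of these, 5 were called higher and 2 lower, a share near the 45.5% of all genes called, and the list median was 0.63 on the log2 scale. The ID genes made up 4 of the 5 higher. ID proteins bind E proteins and hold them away from DNA. ID1 went from 1.94 and 1.72 CPM to 37 and 54.8 CPM, or 4.65 on the log2 scale (FDR = 0.000208, edgeR), and both KD-labelled libraries stood far above control. ID3 and ID4 followed at 3.70 and 3.56 and ID2 at 2.12 (FDR from 0.000505 to 0.00145, edgeR). Called lower were SOX4, from 24 ± 3.16 to 7.7 ± 2.46 CPM (SD, n = 2 each), and KLF8, from 18.1 ± 0.515 to 8.35 ± 1.80 CPM. The E protein genes TCF3 (-0.17), TCF4 (0.28) and TCF12 (-0.34), whose products pair with TWIST and are bound by ID proteins, were not called. PRRX1 was high in 1 library only, with 8.99 and 10.7 CPM in control against 50.3 and 8.32 CPM (FDR = 0.185).

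Of 14 epithelial transcription and splicing factors, 8 did not pass the filter, and OVOL2 and ELF5 had 0 counts throughout. Of the 6 tested, 3 were called higher and 1 lower, against 45.5% of all genes called, and the list median was 0.53 on the log2 scale. KLF4, a zinc finger factor of differentiating epithelium, rose from 7.48 and 6.43 CPM to 45.5 and 69.6 CPM, or 3.05 on the log2 scale (FDR = 0.000474, edgeR). EHF (1.19, FDR = 0.0371) and FOXA1 (1.09, FDR = 0.0179) were also called higher, EHF not with the replicate number as a block (FDR = 0.0716). TP63, the squamous lineage factor, was called lower, from 5.51 and 6.59 CPM to 1.74 and 3.01 CPM. KLF5 (-0.17) and RBM47 (-0.03) were not called. EHF, FOXA1 and TP63 were not called without control replicate 1, at 0.97, 1.28 and -1.46. Nor were they without control replicate 2, at 1.48, 0.92 and -1.21. Both of these fits also called fewer of all genes.

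Epithelial effector genes, meaning junction, polarity and surface genes that EMT factors repress or GRHL2 activates, were mostly lower or hardly detected. Of 32 genes, 18 were tested, and 11 were called lower and 1 higher, the median being -0.83 on the log2 scale. Lower calls made up a larger share than the 24.3% of all genes. CLDN7, a claudin of tight junctions, fell from 5.66 and 6.73 CPM to 0.861 and 1.63 CPM (-2.31), and the mucin MUC1 from 26.5 and 21.3 CPM to 6.18 and 9.33 CPM (-1.62). F11R, a junctional adhesion molecule, fell from 132 ± 20.7 to 58.9 ± 2.21 CPM (-1.17, FDR = 0.0011, edgeR). Occludin (OCLN) was called lower at -1.01. EPCAM, a surface marker of epithelia, had 29 to 48 counts per library, and CLDN3 and MARVELD3 had 0 throughout.

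The bases before the transcription start were searched for CACCTG on both strands, the E-box that SNAI and ZEB proteins are known to bind. In the 250 bases upstream of the RefSeq start (GRCh38.p14), 10 of the 19 epithelial effector promoters that could be matched held at least 1, which is 52.6%. Of all 27305 promoters, 17.5% held at least 1, as did 15.3% of those of genes tested and 3 of 22 mesenchymal effector promoters. Among the members, 5 promoters were matched and 1, that of ZEB1, held the motif. These are counts of letters, with no binding measured. The epithelial list was written to hold genes that EMT factors are known to repress. A higher share of the motif in it is therefore no independent evidence. CDH1 had no entry. Among effectors called lower with a matched promoter, OCLN, MUC1, CDS1 and PATJ (listed as INADL) held the motif. CLDN1, CLDN7, MARVELD2 and KRT8, also called lower, did not. AP1M2 and TJP1 held it and were not called, and SPINT1 had neither motif nor call. The stretches with the motif in capitals are printed for CRB3, a polarity gene with at most 2 counts per library, and for OCLN and MUC1, both called lower.
CRB3 at chr19:6464021-6464270, plus strand: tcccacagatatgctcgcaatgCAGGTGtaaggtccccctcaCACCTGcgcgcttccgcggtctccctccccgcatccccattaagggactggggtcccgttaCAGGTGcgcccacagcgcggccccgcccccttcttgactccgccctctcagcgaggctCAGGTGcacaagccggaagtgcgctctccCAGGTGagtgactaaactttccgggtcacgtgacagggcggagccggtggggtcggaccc
OCLN at chr5:69492297-69492546, plus strand: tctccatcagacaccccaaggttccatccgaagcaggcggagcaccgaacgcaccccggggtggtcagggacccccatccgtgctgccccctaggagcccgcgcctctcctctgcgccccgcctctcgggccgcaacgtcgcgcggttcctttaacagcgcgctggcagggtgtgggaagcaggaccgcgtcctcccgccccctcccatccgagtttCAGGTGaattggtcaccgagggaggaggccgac
MUC1 at chr1:155192916-155193165, minus strand: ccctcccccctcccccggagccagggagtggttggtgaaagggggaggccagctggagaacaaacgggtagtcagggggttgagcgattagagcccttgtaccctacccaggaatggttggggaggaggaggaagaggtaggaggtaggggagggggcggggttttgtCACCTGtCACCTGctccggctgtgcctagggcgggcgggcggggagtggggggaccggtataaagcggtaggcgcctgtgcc

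The motif count differs among the 3, with 5 in CRB3, 2 in MUC1 and 1 in OCLN. In MUC1 the copies lie next to each other, separated by a single base.

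Mesenchymal effector genes were mostly lower as well, like FN1. Of 36 genes, 35 were tested, and 20 were called lower and 3 higher, the median being -1.13 on the log2 scale, against 24.3% of all genes called lower and 21.2% called higher. All 8 tested fibroblast markers but FAP belong to this list, so the marker sums given above move with it. Among those tested, the collagen genes COL3A1 and COL1A2 fell most, COL3A1 from 102 and 146 CPM to 2.33 and 4.18 CPM (-5.25) and COL1A2 from 165 and 191 CPM to 15.6 and 11.6 CPM (-3.71). MMP2, a matrix metalloproteinase, fell from 1241 ± 279.7 to 162 ± 49.5 CPM (SD, n = 2 each), and LUM, a proteoglycan, from 152 ± 3.46 to 22.9 ± 0.832 CPM (FDR = 0.000794 and 0.00015, edgeR). Called higher were, among others, POSTN, a matrix protein, from 52.3 and 57 CPM to 314 and 146 CPM (2.07), and NT5E, the surface enzyme CD73 (1.08). POSTN was not called without control replicate 1 or 2 (FDR = 0.0506 and 0.0564). N-cadherin (CDH2), the cadherin that mesenchymal cells carry in place of E-cadherin, had 164 and 134 CPM in control against 190 and 159 CPM. The groups overlapped, and the difference was 0.22 on the log2 scale (SE 0.15, FDR = 0.248, edgeR).

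**Figure D4:**
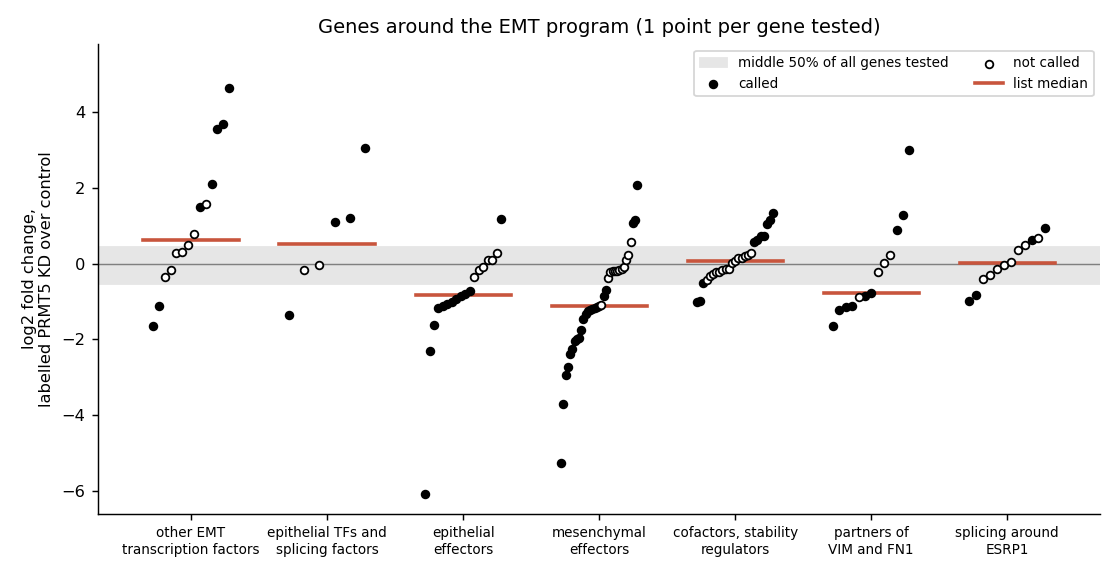
Log2 fold change of each gene tested in the 7 gene lists around the EMT program, labelled PRMT5 KD over control, called genes filled and list medians in red; the grey band holds the middle 50% of all genes tested. The medians of the epithelial and mesenchymal effectors (-0.83 and -1.13) both lie below the band.

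Partners of vimentin and fibronectin were called lower in 6 and higher in 3 of 13 tested cases, with a median of -0.77, against 24.3% of all genes called lower and 21.2% called higher. The fibronectin receptor chains ITGB1 (-1.14) and ITGAV (-1.64) fell, ITGB1 from 2005 and 2324 CPM to 1028 and 942 CPM. ITGA5, the alpha chain that pairs with ITGB1 to bind fibronectin, was not called (-0.23, FDR = 0.238, edgeR). TGM2, a crosslinking transglutaminase, fell by 1.22 on the log2 scale, and PLEC, the linker of intermediate filaments, by 1.11. After the length and GC correction PLEC was at -0.39 and no longer called. SDC4, a syndecan that binds fibronectin, rose from 200 and 165 CPM to 463 and 425 CPM (1.29), as did SYNM, an intermediate filament protein that assembles with vimentin, at 0.88. SYNM was not called without control replicate 1 (FDR = 0.0656) or control replicate 2 (FDR = 0.0819). ITGA5 and LOXL2 are also in the mesenchymal list. The intermediate filament genes DES and NES did not pass the filter.

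Cofactors and regulators of the EMT proteins numbered 25, all tested, of which 7 were called higher and 3 lower, with a median of 0.06, against 45.5% of all genes called. AJUBA had 193 and 142 CPM in control against 132 and 144 CPM, with overlapping groups (-0.28, FDR = 0.19, edgeR). Its relative WTIP was called higher (1.14), though not without control replicate 2 (FDR = 0.0829). Of the chromatin cofactors, EZH2, the Polycomb methyltransferase, rose from 30.4 and 20.3 CPM to 68.9 and 58.8 CPM (1.34), DNMT1, the maintenance DNA methyltransferase, rose by 1.06 on the log2 scale, and SUZ12 (0.72) and HDAC2 (0.63) were also called higher. The corepressor CTBP1 was called lower at -0.52, on the edge of the threshold, and at -0.08 it was not called after the length and GC correction. It was also lost without control replicate 1 (-0.46), control replicate 2 (-0.57, FDR = 0.058) or PRMT5 KD replicate 1 (-0.44). Among enzymes that act on the stability of SNAI and ZEB proteins, the F-box genes FBXO45 (0.73) and FBXL14 (0.57) were higher. GSK3B, the kinase that marks SNAI1 for degradation, was lower at -0.97, and so was the deubiquitinase USP9X at -1.02. KDM1A, HDAC1 and SIN3A were not called, with log2 values between -0.14 and 0.16.

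Splicing factors that act on the same exons as ESRP1, and genes with such exons, were called in 4 of 12 tested cases, 2 in each direction, against 45.5% of all genes called, and the list median was 0.01. PTBP1 rose from 303 and 276 CPM to 584 and 540 CPM (0.96) and HNRNPM from 79.7 and 72.9 CPM to 129 and 106 CPM (0.63). MBNL2 fell from 67.2 and 50.5 CPM to 33.1 and 26 CPM (-0.99), and ENAH, an actin regulator with an ESRP-dependent exon, was called lower at -0.82, though not after the length and GC correction (-0.47). The list had 2 calls without control replicate 1, where HNRNPM and MBNL2 were lost (FDR = 0.0501 and 0.0502), and HNRNPM was also lost without control replicate 2 (FDR = 0.0883). RBFOX2 (-0.30) and QKI (-0.13), whose products promote mesenchymal exons, were not called. CD44, a surface receptor with ESRP-dependent exons, had 991 and 1104 CPM in control against 2131 and 1246 CPM, without overlap, and was not called (0.69, FDR = 0.0715, edgeR). FGFR2 had too few counts to be tested. Counts per gene do not show which exon was used.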

How the data were processed

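RNA-seq libraries of 4 samples (NEBNext directional kit, Singular Genomics G4) were used. The authors deposited estimated counts per gene, not normalized, 1 table of 29744 rows per library; 86.0% to 86.8% of values were whole numbers. The paper's methods name STAR with hg38, a filter to reads mapped once, and FeatureCounts limited to protein-coding genes; the submitters' processing notes also list Salmon, Trim Galore, FastQC and DESeq2 with GRCh38. Which program made the estimates is not given in the sources used here. Ribosomal RNA took 14.2% to 15.3% of control counts and 26.2% and 18.0% in the libraries labelled PRMT5 KD.

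Rows with 1 name were summed, 28 names turned into dates were left out (at most 0.161% of counts), and names were matched to GENCODE release 44 (GRCh38) by symbol, RefSeq gene or unique synonym; 5096 of 29655 had no match. Counts were rounded. Genes coding for proteins that reached 0.5 RPKM (union exon length) in each library of either group were tested with edgeR 4.0.16 (robust quasi-likelihood, TMM) in R 4.3.3, with no replicate term. Standard errors (SE) were taken as the log2 change over the root of F, and 95% intervals from the same fit. RPKM printed for levels uses the canonical transcript and TMM sizes. Floors of 3 counts cover counting error only, and the 95% intervals include the spread between libraries. The test was tried on simulated data with 200 genes changed. Far more were called here, so that trial does not give the error rate in these data.

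The members and gene lists were chosen with earlier results of these data known, and all lists were written from general knowledge. Named genes are the members, up to 4 called genes per list and direction with the largest change at an average log2 CPM of at least 1, and CDH1, EPCAM, CDH2, AJUBA, SNAI3, GRHL1, GRHL3, ESRP2 and PRMT5. Others named beside them were chosen after their values were seen. Some genes that this rule names are not reported here, though they count in the list totals. Same-numbered libraries were not treated as pairs, since no label says so. Columns of file values outside these samples were not present.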

Additional observations from a re-analysis of the deposited data

How the results depend on the processing

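Alternatives were DESeq2 1.42.0, other scalings and filters, all gene names, non-robust dispersion, a replicate block, a length and GC correction, and each library left out. FN1 kept its direction and call in all of them. SNAI1 lost its call with the replicate block (0.61), the correction (0.45), both together (0.45) and the crossed block (0.61), and ranged from 0.56 to 0.68 with 1 library left out. ZEB1 lost it with total counts alone (-0.48), where VIM gained one (0.57). ZEB2, never called, changed sign with the replicate block (-0.0128), the crossed block (-0.0124) and without control replicate 2 (-0.09) or PRMT5 KD replicate 1 (-0.36). With 1 library left out ZEB2 ranged from -0.36 to 0.36. It was furthest from 0 after the length and GC correction, at 0.49, and was at 0.45 with the replicate block added to that correction. Leaving out 1 library gave -0.97 to -0.55 for TWIST1 and 0.57 to 0.78 for PRMT5, which lost its call without control replicate 2. Members called ranged from 2 to 4, all genes called from 3105 (without control replicate 2; 3890 without control replicate 1) to 5724, epithelial factors called from 1 to 4, and splicing genes called from 2 to 6. The splicing list had 7 calls with total counts alone and 7 under filterByExpr, and the microRNA and antisense list had 1 call over all gene names, against 0 among protein-coding genes by construction.

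Total counts alone raised the share of calls that were higher from 46.5% to 61.5%, and the length and GC correction raised it to 53.5%. The replicate block gave 5185 calls over all genes. Deviations of same-numbered libraries had a correlation of -0.10 across genes. The crossed block, chosen after seeing the data, gave 5486 calls.

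With 2 libraries a group, no permutation of labels reaches p = 0.05. Depth limits GRHL2, ESRP1, SNAI3 and CDH1, where a few counts decide any ratio.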
